A study of Ovis aries with 18 samples.

Results

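OAS2 was examined through every SNP that the deposited allele count table assigns to this gene, 41 of 24355 SNPs, ordered by position on chromosome 17 of the Oar v3.1 assembly. The gene was chosen by 2 measured values, its number of listed SNPs and the departure of their reads from an equal share of both alleles. Those shares are therefore given as a description, and where SNPs are counted past the threshold of the study's test, the count describes them too, since the choice of the gene fixed its outcome. RNA-Seq had been done on perirenal adipose tissue, the brown fat around the kidney, of 18 singleton purebred Merino fetuses, 16 labelled female and 2 labelled male, at 132 days post conception. All fetuses were wild type and untreated, came from a common sire and unrelated ewes fed at maintenance, and formed a single condition, so each fetus was 1 sample. The reads at all SNPs of the table totalled 2970824 to 5334585 per fetus, and at a single OAS2 SNP a fetus had between 25 and 452 reads, with a median of 108. One fetus labelled female, RS929, was called heterozygous at 29.1% of the 244 SNPs of chromosome X, within the 25.4% to 32.4% of the males, whereas the other females lay between 54.1% and 69.7%. SNPs were listed for 6 of the 10 adipocyte markers looked for (UCP1, CIDEA, PPARGC1A, PLIN1, ADIPOQ and LEP). These held 38819 to 55514 of every 1000000 reads. The leukocyte markers CD14, CD163 and CSF1R, 3 of 8 looked for, held 47.3 to 93.5. The endothelial markers VWF and CDH5, 2 of 3, held 3188 to 4640. Such sums grow with the number of SNPs in a gene, so they do not measure the share of each cell type.

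OAS2 encodes an oligoadenylate synthetase, an enzyme that senses double-stranded RNA, the usual trace of a replicating virus. It then joins ATP into short oligoadenylates, which act as a signal that sets off the breakdown of RNA in the cell. The gene is induced by interferon in most cell types. It belongs to a family that arose by gene duplication and whose members share sequence. In a diploid cell with 1 copy of a gene on each chromosome, neighbouring heterozygous SNPs that are read by the same reads report the same pair of chromosomes. Their shares are then either alike or mirrored, if the reads of both alleles align equally well, and no site carries more than 2 bases. This applies within 1 animal and not necessarily to reads summed over animals.

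The 41 SNPs spanned 2855 bp, from position 61039913 to 61042767, and fell into 3 runs in which neighbouring SNPs lay at most 100 bp apart, about the length of 1 read. Run 1 held 5 SNPs within 12 bp (61039913 to 61039924), run 2 held 23 SNPs within 250 bp (61041547 to 61041796) and run 3 held 13 SNPs within 122 bp (61042646 to 61042767). The gaps between the runs were 1623 bp and 850 bp. No SNP lay in a UTR, since the authors' annotation gave 29 as missense and 12 as synonymous. Missense SNPs made up 70.7% of the SNPs of OAS2, compared with 19.8% of all SNPs in the table. Among the 545 genes with at least 10 SNPs, the median was 15.4% and 3 genes had a higher percentage than OAS2. In its densest stretch OAS2 had 16 SNPs within 100 bp, where the median of the 545 genes was 3 and the highest count of another gene was 12. In the table of 5810 genes, 7 had more SNPs than OAS2 and 3 others had as many. Transversions accounted for 15 of the 41 SNPs (36.6%), against 21.9% in the table, and 88 of the other genes with at least 10 SNPs had a higher percentage.

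Genotype calls at OAS2 were mostly heterozygous. Of the 738 calls (41 SNPs in 18 fetuses), 673 were heterozygous for the 2 listed alleles, 47 were homozygous for the reference allele, none was homozygous for the alternate allele and 18 named a further allele. Among all calls for all genes, 53.1% were heterozygous and 15.6% homozygous for the alternate allele. At 25 OAS2 SNPs all 18 fetuses were called heterozygous, which is 61.0% of its SNPs, against 5.42% of all SNPs. Of the 545 genes with at least 10 SNPs, 14 had a higher percentage, among them GAK, ERF and FZD2 with 100%, and 20 genes, OAS2 included, had no homozygous alternate call. A further 15 OAS2 SNPs were called heterozygous in 12 to 17 fetuses, with all remaining fetuses homozygous for the reference allele.

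Allele shares took several levels along the gene. Each SNP is written as its reference base, its position on chromosome 17 and its alternate base, and a share is that of the reads with the reference allele, averaged over the fetuses called heterozygous. Among the 40 SNPs with such fetuses, the lower allele held under 0.15 of the summed reads at 18, between 0.15 and 0.25 at 6, between 0.25 and 0.4 at 11, and above 0.4 at 5. The median was 0.188, whereas the median of the 545 genes was 0.466 and 5 of them lay below OAS2. The study's threshold, an unadjusted P-value below 0.05 in a likelihood ratio test against equal shares, served only to count SNPs here, and 38 of the 40 lay past it, as did 45.0% of all SNPs. Of the 38, 33 had more reference reads (33.8% of all SNPs) and 5 more alternate reads (11.1%). When the median share of the table replaced 0.5 as the null, 39 lay past it (41.9% of all SNPs), and when the reads of every fetus entered whatever its call, 39 of 41 (92.5%). Nothing is read from these counts, because the gene was chosen for the same reads.

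In run 1 the reference allele was higher at all 5 SNPs and in every heterozygous fetus. The share was highest at A61039913G, 0.912 ± 0.0160 (SD, n = 13 fetuses), where single fetuses lay between 0.882 and 0.935 around a median of 0.915. It was lowest at A61039924G, 0.880 ± 0.0360 (SD, n = 17 fetuses), between 0.814 in RS933 and 0.942 in RS920. All fetuses of this run were thus on the same side of an equal share, far from it.

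Run 2 also had the reference allele higher at all 23 SNPs in the summed reads, but at very different levels. The highest share was that of G61041703A, a synonymous SNP, with 0.900 ± 0.0283 (SD, n = 16 fetuses) and a range from 0.824 in RS918 to 0.933 in RS905. At T61041796C, the synonymous SNP at the end of the run, the share was the lowest, 0.548 ± 0.0739 (SD, n = 18 fetuses), with single fetuses between 0.381 in RS903 and 0.697 in RS940 and a median of 0.560. Here 13 fetuses had more reference and 5 more alternate reads. Between these extremes lay shares such as 0.802 ± 0.0450 at G61041559A and 0.653 ± 0.0636 at A61041547G (SD, n = 18 fetuses each), which are 12 bp apart.

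Run 3 was the only run with SNPs at which the alternate allele was higher, 6 of the 12 with heterozygous fetuses. At the missense SNP G61042710T the share was the lowest of the run, 0.167 ± 0.0452 (SD, n = 18 fetuses), from 0.0677 in RS933 to 0.246 in RS903, so every fetus had more alternate reads. The next base, T61042711C, had a share of 0.888 ± 0.0323 (SD, n = 16 fetuses) with the reference allele higher in all. The highest share in run 3 was 0.895 ± 0.0301 (SD, n = 15 fetuses) at G61042720C. C61042651T and A61042661G, with summed shares of 0.504 and 0.483, were the 2 SNPs nearest to an equal share and not past the threshold, and at both the fetuses were spread on either side of an equal share (11 against 7, and 8 against 10). At 34 of the 40 SNPs all heterozygous fetuses had the higher number of reads from 1 and the same allele.

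**Figure D1:**
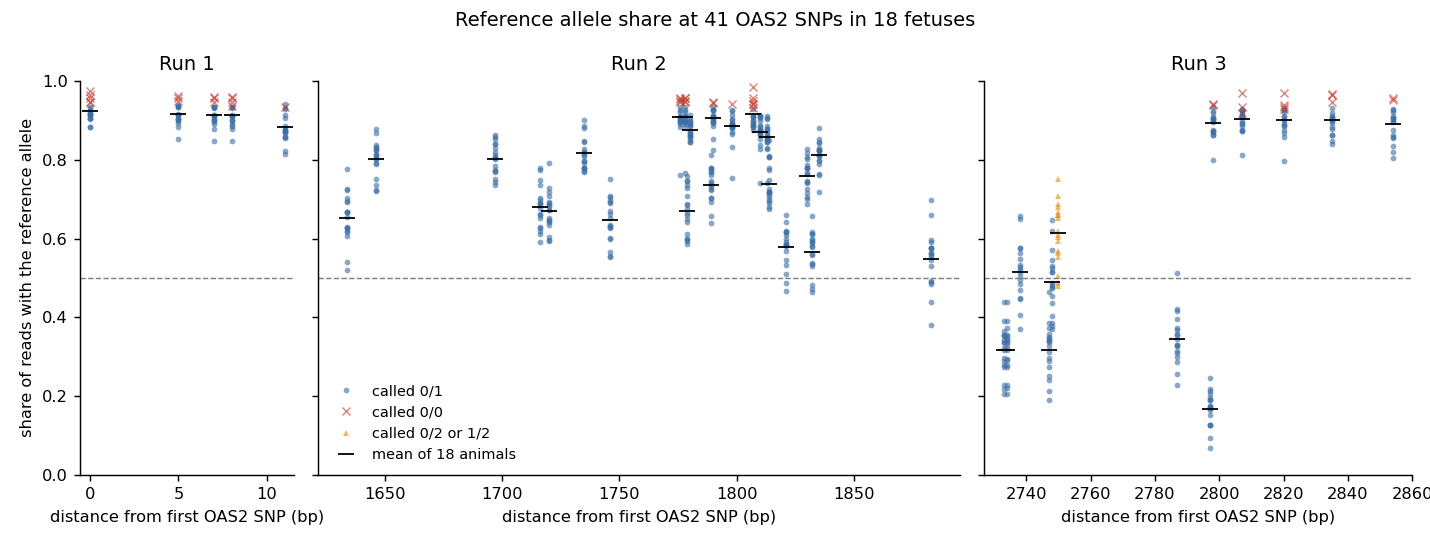
Share of reads with the reference allele (y axis, 0 to 1) at each of the 41 OAS2 SNPs against the distance in bp from the first SNP (x axis), in the 3 runs of SNPs. Each point is 1 of 18 fetuses, marked by its genotype call, and black bars are the mean of the 18 fetuses; run 1 lies near 0.9, run 2 holds SNPs between 0.55 and 0.9, and run 3 holds SNPs on both sides of 0.5.

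Neighbouring SNPs read by largely the same reads did not share 1 level. T61041692C and T61041693C are adjacent missense SNPs, covered by 2455 and 2565 reads in the 18 heterozygous fetuses. The share at T61041692C was 0.671 ± 0.0575, from 0.587 in RS918 to 0.758 in RS943, and that at T61041693C was 0.875 ± 0.0218, from 0.844 to 0.915 (SD, n = 18 fetuses each). The lower allele held 0.331 of the reads at the first and 0.125 at the second, and it was larger at the first in 18 of 18 fetuses. At G61041745C and A61041748G, 3 bp apart, the lower allele held 0.439 and 0.193, again in the same order in 18 of 18 fetuses. The pair T61042646C and G61042647T, by contrast, had the same share of 0.307. The reads of one such pair are not independent, so these counts are given without a test.

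The same measure was taken for every pair of successive SNPs of 1 gene that lay at most 10 bp apart and shared at least 5 heterozygous fetuses with 500 or more reads at each SNP. In the 26 such pairs of OAS2 the lower allele shares differed by a median of 0.0963 and by at most 0.251, between C61041691T and T61041692C. In the 1281 pairs of 599 other genes the median difference was 0.00774, the 95th percentile 0.105 and the largest 0.378, above that of any OAS2 pair. A difference above 0.1 was found in 13 of the 26 OAS2 pairs and in 67 of the other pairs, 5.23% of them. The most among other genes was 4 such pairs, in ALDH5A1, which has more SNPs than OAS2. A difference can be large only where a share departs from equality, and OAS2 was chosen for such a departure. The comparison is therefore a description, and many successive pairs have a SNP in common. Reads of another family member or another copy cannot be told apart from OAS2 reads in these counts, and their part in the shares was not tested. Loss of reads that carry many alternate bases during alignment was not tested either.

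**Figure D2:**
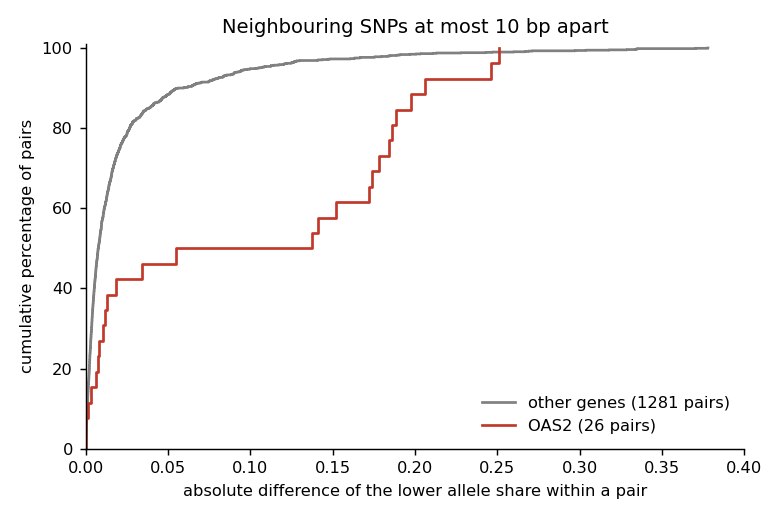
Cumulative percentage of pairs (y axis) against the absolute difference between the lower allele shares of 2 neighbouring SNPs at most 10 bp apart (x axis), for the 26 pairs of OAS2 and the 1281 pairs of other genes. The OAS2 curve lies to the right, with a median of 0.0963 against 0.00774, a description, since OAS2 was chosen for shares far from equality.

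At the missense SNP C61042663A the calls named more than 2 bases. No fetus was called heterozygous for the 2 listed alleles there, 16 were called 0/2 (the reference and a further allele) and 2, RS933 and RS940, were called 1/2 (the alternate and a further allele). Both listed bases were nevertheless read in every fetus, with 16 to 95 reference reads (median 29.5) and 8 to 62 alternate reads (median 18.5). In RS933 and RS940, whose calls leave out the reference allele, 23 and 18 reads carried it. The table does not give the number of reads with the further base.

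Reads with either listed base at this SNP were compared with the mean number of reads at the 2 SNPs before it, A61042660C and A61042661G, which lie 3 bp and 2 bp away. This comparison was chosen after the values were seen. The median was 48 reads at C61042663A and 104 at the SNPs before it. Reads with a listed base thus fell short of the SNPs before it by 53.8% ± 7.05 (SD, n = 18 fetuses), from 38.9% in RS902 to 65.9% in RS940. What the missing reads carried at this site is not known from these counts. All 18 fetuses were short of reads at this site. At the other 26 pairs of OAS2 SNPs within 10 bp the summed reads differed by at most 12%, with a median of 1.31%. Across all genes, 102 calls at 9 SNPs named a further allele, and OAS2 was 1 of 3 genes, with KIAA0754 and ESYT1, in which a SNP had such a call in all 18 fetuses.

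**Figure D3:**
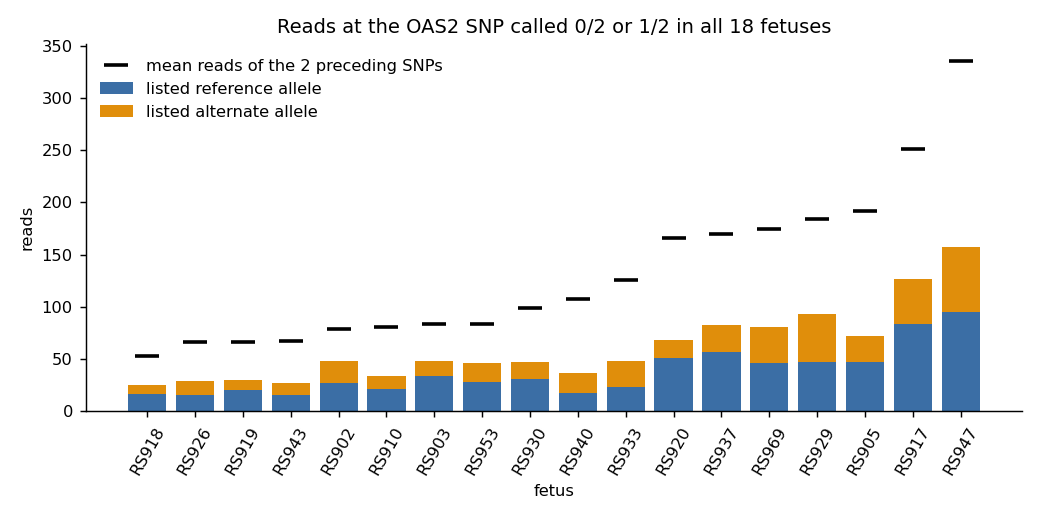
Reads of the listed reference and alternate alleles (stacked bars, y axis) at the OAS2 SNP called 0/2 or 1/2 in every fetus, for each of the 18 fetuses (x axis, ordered by depth). Black marks are the mean reads at the 2 SNPs before it, and in every fetus the bar ends below its mark, by 38.9% to 65.9%.

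Fetuses called homozygous at an OAS2 SNP were examined for reads of the allele that the call leaves out. All 47 such calls, at 15 SNPs, were for the reference allele and had at least 20 reads, and in each of them alternate reads were present, from 1.61% to 8% of the reads with a median of 5.04%. Summed over calls, 238 of 4719 reads (5.04%, 95% Wilson interval 4.45% to 5.71%, counting error only) carried the alternate allele. A read that covers several of these SNPs is counted at each, so the interval is narrower than the counting error of distinct reads. Across the table, 199361 homozygous calls with at least 20 reads gave 0.373% in the sum, 86.8% of the calls had no read of the other allele, and the 95th percentile was 1.67%, which 46 of the 47 OAS2 calls exceeded. The lowest percentage of alternate reads in a fetus called heterozygous at the SNPs with under 0.15 of the lower allele was 5.83%. The percentages of the 2 kinds of call therefore overlapped.

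Differences between fetuses were tested on the reads of the heterozygous fetuses at each SNP, a measure that did not serve to choose the gene. The Pearson chi-square test with Benjamini-Hochberg adjustment over all SNPs found heterogeneity at 5 of the 40 OAS2 SNPs (3 without RS933), where 15.4% of all tested SNPs were called. The 5 were T61041796C in run 2 (adjusted P = 0.000346) and C61042651T, A61042660C, A61042661G and C61042700T in run 3 (adjusted P from 0.00234 to 0.0147). The dispersion between fetuses, where 1 is counting error alone, had a median of 1.31 over the OAS2 SNPs and of 1.41 over the table. It was 0.952 at the SNPs where the lower allele held under 0.15 and 1.90 at the 16 where it held 0.25 or more. Fetuses called homozygous are left out of these values, and with all 18 fetuses the dispersion at the former SNPs was 1.23. With the reads of all 18 fetuses counted whatever their call, an alternative chosen after the data were seen, 13 OAS2 SNPs were heterogeneous, but this setting mixes genotypes and called 94.2% of the table.

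Sex was the only label that differed between the fetuses. For each run, the share of the higher allele was averaged over the SNPs of the run in each fetus, whatever its call and with C61042663A included in run 3. In run 2 the 16 females had a mean of 0.771 ± 0.0229 (SD, n = 16), from 0.739 to 0.815, and the males RS903 and RS918 had 0.738 and 0.702. Both males thus lay below all females, but RS903 only by the smallest margin, with 0.738 against 0.739 in RS969 and 0.741 in RS910. The difference of means was −0.0509 (exact permutation test, two-sided, p = 0.00654, and 0.0196 after Benjamini-Hochberg adjustment over the 3 runs). The test took all ways to choose 2 of 18 fetuses, and this p is the smallest the design allows. It ranks the choice of the 2 males among these ways and does not measure the spread between females. The males were low at different SNPs: RS918 had the lowest share of the heterozygous fetuses at T61041702C, C61041711G and C61041723G among others, and RS903 at T61041734C, G61041745C, A61041748G and T61041796C. RS918 was not low throughout the run, having the highest share of all fetuses at G61041610A (0.864) and, called homozygous, at G61041720A (0.984). RS929, labelled female but with heterozygosity on chromosome X in the range of the males, had 0.760 in run 2, inside the female range. Were it counted as a male, the males would not all lie below the females, and no test was run with it as a male. Without RS929 the difference was −0.0517 (exact permutation test, adjusted p = 0.0221). With only 2 males, it rests on single animals, since RS903 alone differed from the female mean by −0.0328 and RS918 alone by −0.0690.

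In run 1 the females averaged 0.911 ± 0.0286 (SD, n = 16) and the males had 0.932 and 0.878 (exact permutation test, adjusted p = 0.804). In run 3 the females averaged 0.745 ± 0.0256 (SD, n = 16) and the males had 0.726 and 0.748 (exact permutation test, adjusted p = 0.804). The males lay within the range of the females in both runs. In run 3, however, SNPs whose reference shares move together can cancel in the average, because it takes the allele with more summed reads at each SNP. C61042651T enters by its reference and A61042661G by its alternate allele. Their reference shares were 0.656 and 0.619 in RS903 but 0.369 and 0.385 in RS940. The average of run 3 is thus no full measure of the departure in a fetus. Over the 7 SNPs of run 3 that were called heterozygous in all 18 fetuses, however, the males had 0.583 and 0.628 against a lowest female value of 0.606, a difference of −0.0521 (exact permutation test, adjusted p = 0.0654), about as large as that in run 2. Whether the sex difference itself differed between the runs was not tested.

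**Figure D4:**
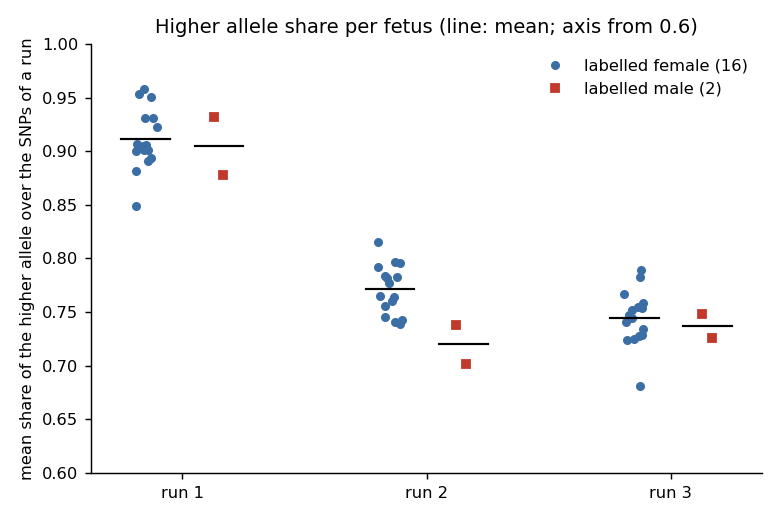
Mean share of the higher allele over the SNPs of each run (y axis, from 0.6 to 1) for the 16 fetuses labelled female and the 2 labelled male (points), with the mean of each sex as a line. The 2 males lie at 0.738 and 0.702 in run 2, below the lowest female at 0.739, and, averaged over all SNPs of a run, within the female range in runs 1 and 3.

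The run averages were not detectably correlated between runs. Because SNPs can cancel in the average of run 3, its correlations cannot decide whether the departure itself is related between runs. Across the 18 fetuses the correlation of the run averages was r = 0.246 (rho = 0.216) for runs 1 and 2, r = −0.416 (rho = −0.296) for runs 1 and 3, and r = 0.191 (rho = 0.267) for runs 2 and 3. None passed a permutation test with 100000 resamples (unadjusted p = 0.327, 0.0842 and 0.449 for r and 0.388, 0.232 and 0.282 for rho, Benjamini-Hochberg adjusted over 6 relations 0.653, 0.505 and 0.673 for r and 0.499 for each rho). Without the 2 fetuses farthest from the median of the first run, r was 0.484, −0.340 and 0.0791.

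Fetuses also differed in the number of reads at the OAS2 SNPs, called the level of OAS2 here. It was measured as the reads at all OAS2 SNPs per 1000000 reads of the table (RPM), in which a read that covers several SNPs is counted at each. RS918 had the lowest level, 506, the median was 1018 and RS947 had the highest, 3608, a 7.13-fold range, with the second highest, RS929, at 1875. The 2 males had 764 and 506, in the lower part of the order. The coefficient of variation over the 18 fetuses was 57.9%, compared with a median of 15.5% over the genes of the table. Among the 113 other genes with at least as many reads as OAS2, 3 had a higher one. In whole tissue, more cells expressing the gene and more RNA per cell cannot be told apart, nor can reads of another family member or copy be separated from those of OAS2 in this level.

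The level and the run averages were not detectably related, with the same limit for the average of run 3. The correlation of the log2 level with the run average was r = 0.0348 (rho = 0.203) in run 1, r = 0.262 (rho = 0.263) in run 2 and r = 0.140 (rho = 0.0506) in run 3 over the 18 fetuses. Permutation tests with 100000 resamples gave p = 0.893, 0.293 and 0.580 for r (0.893, 0.653 and 0.696 after adjustment over the 6 relations) and 0.416, 0.292 and 0.845 for rho (0.499, 0.499 and 0.845). Leaving out RS947 and RS918, the fetuses farthest from the median level, gave r = 0.0453, 0.0972 and 0.15. In RS947, the fetus with the highest level, the averages of runs 1, 2 and 3 were 0.891, 0.765 and 0.752, close to the medians of 0.906, 0.765 and 0.745.

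Other genes followed the level of OAS2 across the fetuses. By the Spearman correlation of RPM over 18 fetuses, the 5 genes most like OAS2 among 5809 were RSAD2 (0.915), MX1 (0.880), IFI44L (0.864), IFI6 (0.862) and SAMD9 (0.837). RSAD2 encodes viperin, an antiviral enzyme, MX1 an interferon-induced GTPase that blocks viruses, IFI44L and IFI6 are interferon-induced genes, and SAMD9 is an antiviral factor. MX1 reads ranged from 43.6 to 206 RPM with a median of 75.3, and IFI6 reads from 23.0 to 319 RPM with a median of 69.6. RS947, the fetus with the most OAS2 reads, was also the highest for all 5. The next genes in the order were CMPK2 (0.831), an interferon-induced nucleotide kinase beside RSAD2 in the genome, and RNF213 (0.808). Without RS947 the correlations of the first 5 were between 0.806 and 0.900, and the same 5 genes led. By Pearson correlation of the log2 levels 3 of them were among the first 5. The summed reads of the leukocyte markers had a correlation of 0.354 with OAS2 and those of the adipocyte markers 0.193, and their part in the OAS2 level was not tested.

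**Figure D5:**
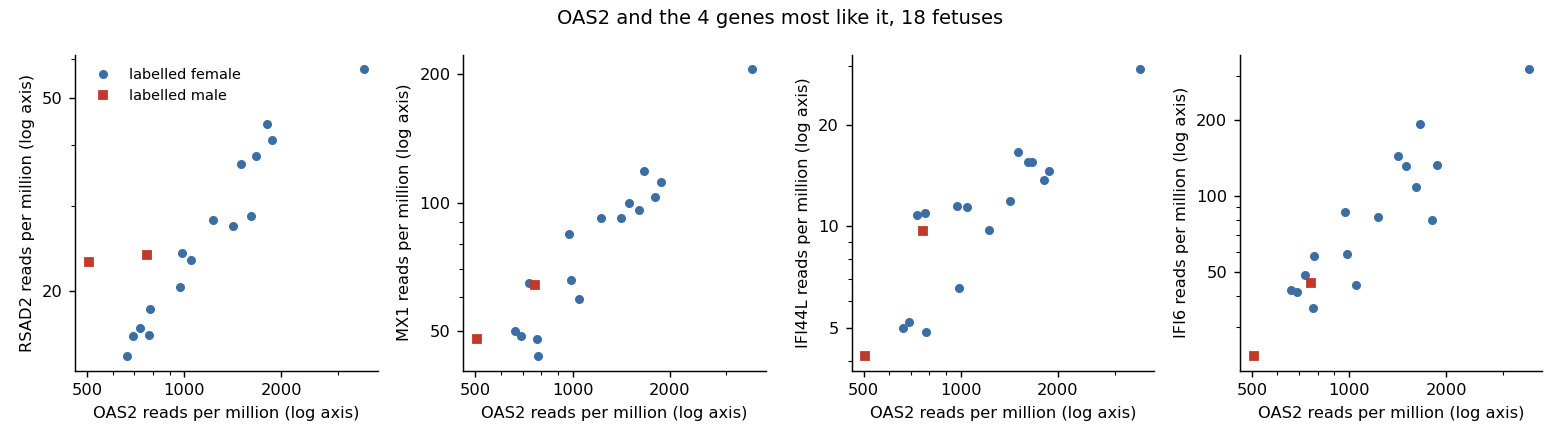
RPM for OAS2 (x axes, log scale) against RSAD2, MX1, IFI44L and IFI6 (y axes, log scale), with 1 point for each of the 18 fetuses, marked by labelled sex. The points rise together in each panel, and the fetus at the upper right of all 4 is RS947, with an OAS2 level of 3608 RPM.

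A list of 69 other interferon and antiviral genes was examined for both measures, of which 38 had SNPs in the table. OAS1, OAS3 and OASL, other members of the family, were on the list but, under these symbols, not among the 38 with SNPs. Over the 38 genes the median Spearman correlation of their levels with OAS2 was 0.387, while it was −0.0382 over all genes, and 13 of the 30 genes most like OAS2 were on the list. The double-stranded RNA sensor kinase EIF2AK2 (0.779), IFI35 (0.777), B2M (0.730), the light chain of MHC class I, and IRF9 (0.680), a DNA-binding factor of the interferon response, were among them. Other list members followed OAS2 less: IFIH1, a cytosolic sensor of viral RNA, had 0.593, STAT2 0.243, ADAR, which edits double-stranded RNA, 0.245, the kinase JAK1 −0.00310 and the ubiquitin ligase TRIM25 −0.224. These are descriptions over the same 18 libraries.

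Allele shares of the listed genes were nearer to equality than those of OAS2, a description, since OAS2 was chosen for its departure from equality. The likelihood ratio test called 63 of their 165 SNPs (38.2%), and 45.0% in the table, 49 with the reference and 14 with the alternate allele higher. The median share of the lower allele was 0.469, and 0.466 over the table. None of the 165 SNPs was called heterozygous in all 18 fetuses, and 41 (24.8%) were missense. The lowest share of a lower allele among them was 0.356, in TRIM25, with 15 of 21 SNPs past the threshold. SAMHD1, a nucleotide hydrolase that limits viruses, passed it at 5 of 5 SNPs. At its SNP with the smallest P-value the reference share of the summed reads was 0.629, and the shares of the 9 heterozygous fetuses had an SD of 0.0471. Among the genes whose levels were most like OAS2, RSAD2 passed at 0 of 4 SNPs, IFI44L at 0 of 2 and MX1 at 2 of 6, with a lowest lower allele share of 0.434. IFI6 passed at both of its SNPs, with opposite higher alleles. At its SNP with the smallest P-value the reference share of the summed reads was 0.621, close to that of SAMHD1. The shares of the 5 heterozygous fetuses had an SD of 0.0333 there.

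The 10 genes with SNPs nearest to OAS2 on chromosome 17 were SDS, PLBD2, DDX54, TPCN1 and SLC8B1 on one side and PTPN11, TRAFD1, RAB35, GCN1L1 and RPLP0 on the other. Their 46 SNPs were called heterozygous in a median of 9 fetuses, and 1 of them, in PTPN11, in all 18. Homozygous alternate calls made up 21.1% of their calls, where OAS2 had none. The lower allele held a median of 0.468 of the reads and at least 0.388, in PLBD2. No neighbour thus reached the median of OAS2, which was chosen for its departure from equality. In levels the neighbours had Spearman correlations with OAS2 between −0.509 (DDX54) and 0.110 (PLBD2) across the 18 fetuses.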

How the data were processed

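The authors aligned paired end RNA-Seq reads of 18 libraries to Oar v3.1 with STAR, allowing at most 10 mismatches and keeping reads with a unique position. The paper states that reads from the non-reference allele map to their correct place less often. How far such loss of reads shaped the shares and levels of OAS2 was not tested. The authors called SNPs and genotypes from the same reads with GATK 3.4-46. They kept SNPs in ENSEMBL genes outside simple repeats where 5 or more animals had 10 reads for both alleles, and annotated them with the Variant Effect Predictor. The authors deposited raw read counts of the reference and alternate allele per SNP and animal, without normalization, and the genotype call. The deposited score (the chi-square statistic), P-value and fraction of reference reads of each SNP are results of the authors' own test and were not used. One column named PS910 was taken as RS910, the only label with that number.

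From the counts, the Poisson likelihood ratio test of the study (2 times the log likelihood ratio) and the Pearson chi-square test between animals were computed for all SNPs, and the results are given for OAS2 and, as counts, for the genes compared with it. A moderated quasi-binomial F test (limma 3.58.1, R 4.3.3) was an alternative. Permutation tests used scipy 1.17.1 and numpy 2.4.6 in Python 3.11.15. The scripts were tested on simulated data. A run average took the SNPs with at least 10 reads in every animal. Levels are reads at the SNPs of a gene per 1000000 reads of the table, for genes with at least 200 reads. The rule named OAS2 with the highest and lowest SNP of each run, an interferon list, 5 neighbours on each side and the 5 genes most like OAS2; pairs of SNPs and further listed genes were named after their values were seen. OAS2, its lists and tests were chosen with earlier results of these data known. Genotypes and counts come from the same reads, and the labels do not say which library ran on which flowcell. Intervals cover counting error only and take a read counted at several SNPs as several reads. No genome sequence was used here.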

Additional observations from a re-analysis of the deposited data

How the results depend on the processing

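The number of OAS2 SNPs past the study's threshold, a description since the gene was chosen for these reads, was 38, and it was 38 or 39 with animals as replicates, another null share, all animals or adjusted P-values, and when each animal was left out in turn. Dropping the minimum of reads tested the same number of SNPs in the table, 24244, and so is no separate alternative. With a minimum of 30 reads for both alleles in 5 heterozygous animals it was 16, out of 18 SNPs left, while 53.8% of the table was called. Heterogeneity between animals was called at 5 SNPs also with 20 reads per animal or a G test, at 3 to 6 when each animal was left out (3 without RS933), and at 13 with the reads of all animals whatever the call. The sex difference in run 2 ranged from −0.0690 without RS903 to −0.0328 without RS918, values with no test since 1 male was left. Among SNPs heterozygous in all animals, run 2 gave −0.0509 and run 3 gave −0.0521 (exact permutation test, adjusted p = 0.0654); run 1 has no such SNP. The 6 correlations of shares passed under none of their alternatives. By Pearson correlation of log2 levels, 3 of the 5 genes most like OAS2 remained. Alternate reads in homozygous calls were 5.04% and 5.05% with minimums of 10 and 50 reads. No paired analysis was possible because the animals form 1 group.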
